A study of Mus musculus with 6 samples.

Results

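T cells of skin-grafted tolerant mice that had taken up the activation marker CD69 in culture with donor cells were set beside the same fraction of naive mice. The comparison uses 2 of the 6 arrays of the study, 1 array a side, chosen by their labels. The tolerant array held CD69+ T cells of C57BL/6 males that carried tail skin of BDF1 donors (C57BL/6 x DBA/2) and had received donor cells with the CD40L antibody MR-1, taken on day 100 after grafting. The naive array held CD69+ T cells of healthy, ungrafted and untreated C57BL/6 males. Graft, transfusion, antibody and time since treatment therefore differ together between the groups, and their parts cannot be told apart. In every group, spleen and lymph node T cells were kept for 20 to 21 h with splenocytes of the donor strain, from which T cells had been removed, and then sorted on CD3 and CD69. The protocol text gives the same CD69+ gate for both fractions, so the CD69- fraction is known from the sample titles and cell type labels. The other arrays used here held the CD69- fractions of both groups and the CD69+ and CD69- fractions of untreated recipients that were rejecting a graft on day 7. The labels do not say how many mice an array stands for. With 1 array a side there is no spread between samples, so every difference below is a value of these arrays with no test and no error. The number of arrays limits the precision.

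Levels are log2 intensities after background correction and quantile normalization of all 6 arrays, so that 1 unit is a doubling of signal. Each gene is read from 1 probe, and levels are compared between arrays, not between genes. A gene was counted as apart when the arrays differed by at least 1.5-fold and the brighter of the CD69+ arrays had a deposited signal of 500 or more. Of 8347 named genes detected on at least 1 array, 5911 had that signal.

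Full activation of a T cell needs signals from its antigen receptor and from costimulation. Blocking CD40L while donor cells are given is an established way to prolong graft survival in mice, and deletion, anergy and regulatory T cells have all been described in such models. CD69 is an early surface marker of receptor stimulation. An activated T cell turns on cytokine genes, Myc, ribosome production and DNA replication, and turns down genes of the resting state such as Il7r and Klf2.

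The sorted cells carried T cell transcripts in both groups. Cd3e had a level of 14.59 on the tolerant array and 14.24 on the naive array, and Cd3d had 15.32 in tolerant and 14.61 in naive cells. Cd69, the gene used for the sort, had 13.31 in tolerant and 13.76 in naive CD69+ cells, above the 11.21 in tolerant and 12.53 in naive CD69- cells. The sorted fractions thus matched their labels on this gene. Between 12669 and 13469 probes were detected per array, 13452 of them in tolerant and 12821 in naive CD69+ cells. Of 23 myeloid and dendritic markers named on the array, 1 was detected on either side, Gpnmb. Of 16 B cell markers, 5 were detected in tolerant and 4 in naive CD69+ cells, while Ms4a1, Cd22 and Pax5 were not detected on any array. In RNA of a bulk fraction, fewer cells of a type and less RNA per cell cannot be told apart.

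Among the 8347 named genes, 698 (8.36%) were higher in tolerant than in naive CD69+ cells and 549 (6.58%) were lower. At 2-fold, 199 (2.38%) were higher and 84 (1.01%) lower. With array medians centred in place of the quantile step, the split was 939 higher against 389 lower. The median over all named genes was then 0.09 on the log2 scale, against -0.01 with the quantile step. The same rule put 143 genes (1.71%) higher and 30 (0.359%) lower in rejecting than in naive CD69+ cells. These comparisons share the naive array.

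Genes were then ordered by how they differed with activation in the rejecting mice, whose pair of arrays has no part in the tolerant and naive comparison. Genes that were at least 2-fold higher in rejecting CD69+ than CD69- cells numbered 1095 with the signal required. Of these, 965 (88.1%) had a lower level in tolerant than in naive CD69+ cells, with a median difference of -0.44 on the log2 scale, and 342 were past 1.5-fold lower against 51 past it higher. Genes that were at least 2-fold lower in rejecting CD69+ than CD69- cells numbered 811. Here 748 (92.2%) had a higher level in tolerant than in naive cells, with a median difference of 0.54, and 372 were past 1.5-fold higher against 9 past it lower. The 4005 genes in between had a median of -0.00. Over the 5911 genes with signal, 11.8% were past 1.5-fold higher and 9.29% lower.

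The gap between the sorted fractions was accordingly smaller in tolerant mice. For the 1095 genes the median of CD69+ minus CD69- was 1.33 in tolerant, 1.64 in naive and 1.58 in rejecting mice. For the 811 genes it was -1.06 in tolerant, -1.54 in naive and -1.34 in rejecting mice. Across the 5911 genes, which share arrays and are not independent replicates, the correlation of the tolerant minus naive difference with the difference between fractions in rejecting mice was -0.60 (Pearson's r, a description). Whether the CD69+ gate held cells at different stages of activation in the groups was not tested.

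**Figure D1:**
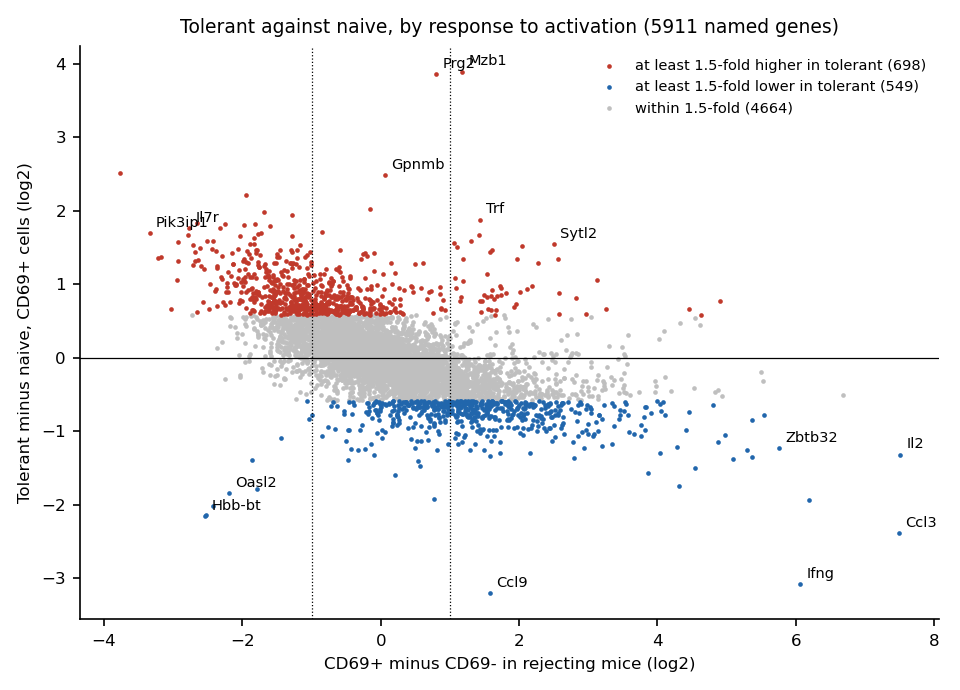
Each point is 1 of 5911 named genes with a signal of 500 or more. The horizontal axis gives CD69+ minus CD69- in rejecting mice and the vertical axis tolerant minus naive in CD69+ cells, both on the log2 scale, with dotted lines at 2-fold. Of the 811 genes left of the dotted lines 748 lie above 0, and of the 1095 genes right of them 965 lie below 0.

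Secreted cytokines were mostly lower in tolerant CD69+ cells. Of 20 detected members, 6 were lower past 1.5-fold and 1 was higher, with a median of -0.45. Counts of a gene group, here and below, are over its detected members and are read against the 8.36% higher and 6.58% lower, and the median of -0.01, over all 8347 named genes. Ifng, the cytokine of type 1 responses, had 10.76 in tolerant, 13.84 in naive and 13.52 in rejecting CD69+ cells, an 8.46-fold lower level in tolerant than in naive cells. The gene was thus near the naive level in rejecting cells, while the tolerant array stood well below both. Il2, the T cell growth factor, had 12.24 in tolerant and 13.56 in naive cells and was 2.49-fold lower. Il3, which acts on myeloid progenitors, had 9.62 in tolerant and 10.99 in naive cells. Lif, a cytokine of the interleukin 6 family, had 8.58 in tolerant and 10.08 in naive cells. Other cytokines stood closer together. Tnf had 11.17 in tolerant and 11.57 in naive cells, Il4 had 10.15 in tolerant and 10.58 in naive cells, Csf2 had 8.91 in tolerant and 9.38 in naive cells and Il10 had 8.09 in tolerant and 8.28 in naive cells, all within 1.5-fold. The cytokine higher in tolerant cells was Il16, a T cell chemoattractant, with 9.95 in tolerant and 9.07 in naive cells.

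Of 9 detected chemokines, 5 (55.6%) were lower and 1 was higher. Ccl3 and Ccl4, inflammatory chemokines of activated T cells, had 10.95 and 13.58 in tolerant cells and 13.34 and 15.51 in naive cells. Xcl1, which attracts cross-presenting dendritic cells, had 12.06 in tolerant, 13.42 in naive and 12.64 in rejecting CD69+ cells. In CD69- cells Xcl1 stood the other way, at 8.09 in tolerant and 6.94 in naive mice. Ccl9 was detected in naive cells at 8.77 but not in tolerant cells, which makes it at least 4.64-fold lower. Ccl5, a chemokine kept by memory and effector T cells, was the one higher, at 12.35 in tolerant and 10.55 in naive cells. Ccl5 thus stood in the other direction from Ccl3 and Ccl4. It also had higher levels in CD69- than in CD69+ cells of either group, at 13.48 in tolerant and 13.08 in naive CD69- cells. Ccl3 and Ccl4 had lower levels in CD69- than in CD69+ cells.

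Among 18 detected transcription factors of activation, 6 (33.3%) were lower and 1 was higher. Zbtb32, a repressor induced by receptor signals, had 10.45 in tolerant and 11.67 in naive cells. Irf8 had 10.12 in tolerant and 11.27 in naive cells, and Irf4, needed for effector differentiation, had 12.30 in tolerant and 13.15 in naive cells. Hif1a, the regulator of the response to low oxygen, was 9.12 in tolerant against 10.14 in naive cells. Myc, which drives growth of activated lymphocytes, was 10.33 in tolerant and 11.15 in naive cells. All of these had rejecting CD69+ levels nearer to the naive than to the tolerant array. Rora, a nuclear receptor, was the one higher, with 10.70 in tolerant and 9.87 in naive cells. Gata3 had 11.03 in tolerant and 10.61 in naive cells, within 1.5-fold.

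Early receptor targets did not share this order. Egr1 had 12.78 in tolerant and 12.61 in naive cells, Fos had 8.13 in tolerant and 8.04 in naive cells, and Nfkbia had 13.76 in tolerant and 13.84 in naive cells. The highest-variance Nfkbia probe gave a larger difference of -0.71. Of 20 detected immediate early genes, 1 was higher, Fosl2, at 11.36 in tolerant and 10.41 in naive cells, and 1 was lower, Nr4a3, at 7.58 in tolerant and 8.65 in naive cells. Surface molecules of activation had 2 of 21 genes higher and 1 lower, near the shares of all named genes, and a median of 0.01, which turned to -0.21 with the highest-variance probe of each gene. Tnfrsf9, which encodes the costimulatory receptor 4-1BB, had 13.03 in tolerant and 12.96 in naive cells, and Icos had 12.67 in tolerant and 12.47 in naive cells. Il2ra, the alpha chain of the interleukin 2 receptor, was 11.16 in tolerant against 11.74 in naive cells, just inside the 1.5-fold limit. Fasl, the death ligand, was higher, at 11.11 in tolerant and 10.51 in naive cells. Slamf7 was lower, at 8.64 in tolerant and 9.40 in naive cells. On the probes used, Tnfrsf9 and Icos thus stood close together on the arrays that set Ifng and Ccl3 far apart. For Icos the highest-variance probe gave -0.50, the other direction.

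**Figure D2:**
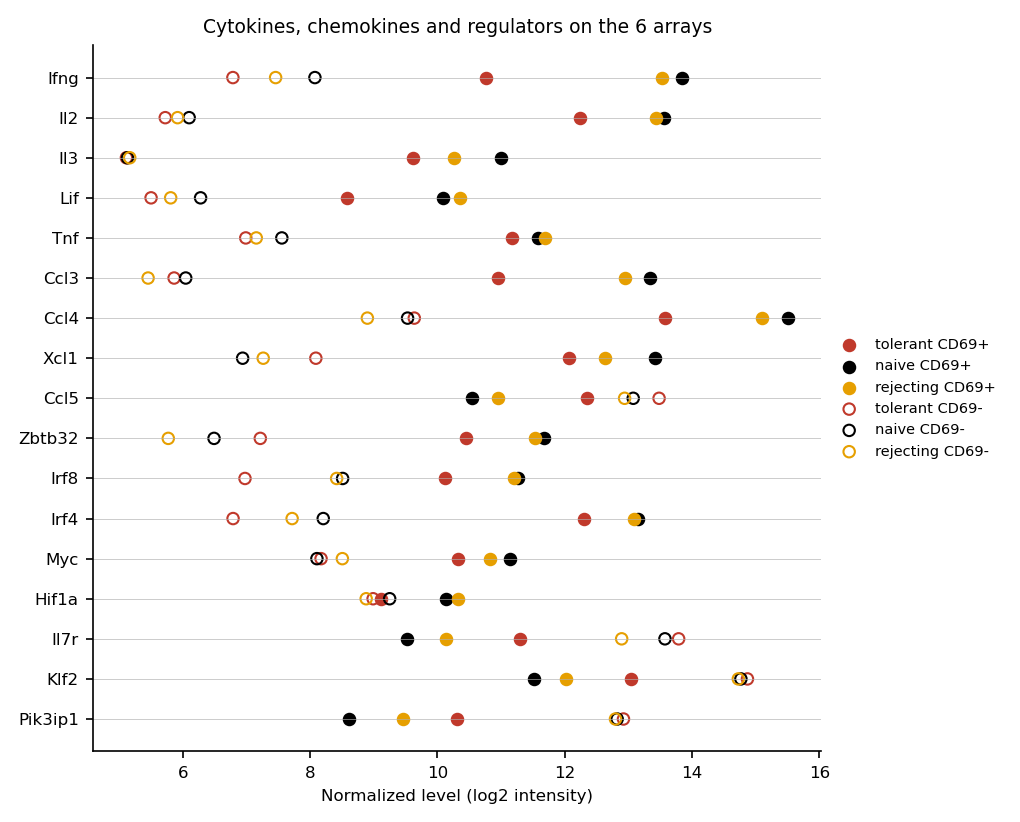
Each row is a gene and the horizontal axis is its normalized level (log2 intensity) on each of the 6 arrays; filled points are CD69+ and open points CD69- cells. The tolerant CD69+ point lies left of the naive and rejecting CD69+ points for the cytokine and transcription factor genes drawn, and right of them for Ccl5, Il7r, Klf2 and Pik3ip1.

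Genes of cell growth were lower as groups, each by a modest amount. Of 31 detected genes of ribosome biogenesis, none had a higher level in tolerant cells, 12 (38.7%) were past 1.5-fold lower and the median was -0.53. Gnl3, a nucleolar GTPase, had 9.05 in tolerant and 10.23 in naive cells. Wdr75 and Rrp9, which act in processing of ribosomal RNA, had 11.54 and 11.46 in tolerant cells and 12.42 and 12.26 in naive cells. Pno1, an assembly factor of the small subunit, had 11.70 in tolerant and 12.57 in naive cells. The ribosomal protein genes stood apart from this group: none of 31 was past 1.5-fold and their median was 0.01.

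Purine and pyrimidine synthesis had 11 of 22 genes lower, none higher and a median of -0.57. Adss, which makes the precursor of AMP, had 9.66 in tolerant and 10.92 in naive cells. Shmt1, which supplies carbon units for purines, had 10.80 in tolerant and 11.85 in naive cells and Umps, the last enzyme of UMP synthesis, had 11.11 in tolerant and 12.14 in naive cells. Ppat, the first committed step of purine synthesis, was 10.02 in tolerant and 10.87 in naive cells. Amino acid supply had 5 of 27 genes (18.5%) lower and 1 higher. Slc1a5, a glutamine transporter, had 7.39 in tolerant and 8.69 in naive cells, and Slc38a1, another amino acid transporter, had 8.40 in tolerant and 9.50 in naive cells. Phgdh and Psat1, enzymes of serine synthesis, had 11.38 and 12.27 in tolerant cells and 12.23 and 12.87 in naive cells. Ddit3, a transcription factor of the stress response, was the member that was higher, at 10.87 in tolerant and 9.67 in naive cells. The fifth lower member was Mars1, a tRNA synthetase named here to complete the count.

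Genes of transport into the nucleus and of mitochondrial ribosomes and import were lower too. All 22 nuclear pore and transport genes and all 27 genes of mitochondrial ribosomes and import had lower levels in tolerant cells, with medians of -0.55 and -0.45, and 8 of each group (36.4% and 29.6%) were past 1.5-fold. Nup54, a pore subunit, had 6.62 in tolerant and 8.55 in naive cells. Its tolerant level lay near that array's detection limit of 6.56, and its difference was -1.10 without background correction. Rcc1, the exchange factor for Ran, had 10.14 in tolerant and 11.04 in naive cells. Tomm40, the import channel of the outer membrane, was 10.36 in tolerant and 11.09 in naive cells. Translation factors had 5 of 23 (21.7%) lower with a median of -0.42, among them Eif2b3 at 11.29 in tolerant and 12.24 in naive cells. Chaperones had 4 of 22 (18.2%) lower with a median of -0.40, among them Ppid, a cyclophilin that works with HSP90, at 12.60 in tolerant and 13.44 in naive cells. Proteasome genes had a median of -0.29 with 1 of 25 past 1.5-fold, below the share of all named genes. This was Psma5, at 14.73 in tolerant and 15.34 in naive cells. Oxidative phosphorylation had a median of -0.14, and the 2 of 29 genes that were lower (6.90%), Cycs and Cyc1, are a share near that of all named genes. None of these 4 groups had a member past 1.5-fold higher.

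Genes of DNA replication were lower in 10 of 33 cases (30.3%) and higher in none, with a median of -0.43. Mcm10, which loads polymerase at origins, had 9.23 in tolerant, 10.48 in naive and 10.66 in rejecting CD69+ cells. Cdc45 and Gins1, parts of the replicative helicase, had 8.74 and 9.37 in tolerant cells and 9.77 and 10.39 in naive cells. Among 22 genes of mitosis, 4 (18.2%) were lower and 1 higher. Smc2, a condensin subunit, had 7.44 in tolerant and 8.69 in naive cells, and Cdk1, the kinase that starts mitosis, had 7.68 in tolerant and 8.72 in naive cells. Top2a, a marker of dividing cells, had 9.22 in tolerant and 9.52 in naive cells, within 1.5-fold. The higher member was Cenpa, a centromere histone, at 12.22 in tolerant and 11.48 in naive cells, and the mean of its detected probes fell inside the limit at 0.42.

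Regulators of the step into S phase were mixed. The 5 lower genes of 22 (22.7%) included Ccne1, which encodes cyclin E1, at 7.62 in tolerant and 8.62 in naive cells. E2f1, an activator of S phase genes, had 9.35 in tolerant and 10.27 in naive cells, and Cdc25a, the phosphatase that acts on CDK2, had 10.30 in tolerant and 10.96 in naive cells. The 4 higher genes (18.2%) were Cdkn2d, Cdkn2c and Cdkn1b, which encode kinase inhibitors, and Rb1, the retinoblastoma gene. Cdkn2d had 9.74 in tolerant and 8.98 in naive cells, Cdkn2c had 9.46 in tolerant and 8.81 in naive cells, and Cdkn1b had 8.29 in tolerant and 7.63 in naive cells. For Rb1, another probe with sufficient signal gave -0.03, against 0.71 for the probe used, so that its probes disagree. Rbl1, a relative of Rb1 named here after its value was seen, was among the lower genes.

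Genes of the resting state were mostly higher in tolerant CD69+ cells. Of the 22 members detected from the list of naive and quiescent T cells, 13 (59.1%) lay past 1.5-fold higher in tolerant CD69+ cells, 1 was lower and the median was 0.72. Il7r, the receptor for the survival cytokine interleukin 7, had 11.30 in tolerant, 9.53 in naive and 10.13 in rejecting CD69+ cells, against 13.79 in tolerant and 13.57 in naive CD69- cells. Another Il7r probe gave a smaller difference of 0.65. Klf3 had 8.59 in tolerant and 6.82 in naive cells, and Klf2, which keeps T cells quiescent and circulating, had 13.05 in tolerant and 11.51 in naive cells. Pik3ip1, an inhibitor of PI3 kinase, was 10.31 in tolerant and 8.61 in naive cells. Tsc22d3, which encodes the glucocorticoid-induced protein GILZ, was 11.68 in tolerant and 10.01 in naive cells. For each of these genes both CD69- arrays lay above the tolerant CD69+ array, so that tolerant CD69+ cells stood between naive CD69+ cells and CD69- cells. The member that was lower was Slfn2, at 10.82 in tolerant and 11.47 in naive cells. The same 22 genes had a median difference of 0.11 in CD69- cells.

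Some single genes ranked 11 to 30 act in growth control. Mxd4, an antagonist of MYC, had 12.28 in tolerant and 10.63 in naive cells. Ypel3 was 2.92-fold higher in tolerant than in naive cells. Genes of apoptosis and survival had 3 of 23 higher (13%) and 1 lower (4.35%), not far from the shares of all named genes. Bbc3, which encodes the death protein PUMA, had 10.08 in tolerant and 8.88 in naive cells, and Bcl2l11, which encodes BIM, had 12.48 in tolerant and 11.73 in naive cells. Means over all detected probes of these genes were 0.43 and 0.14, inside the limit. Bcl2l1, which encodes the survival protein BCL-XL and is raised by activation, was lower, at 10.69 in tolerant and 11.34 in naive cells, and its other probes gave -1.23 and -1.09. Gimap7, Gimap1 and Gimap6, small GTPases of lymphocyte survival, were higher among 6 detected members, with a median of 0.54. With array medians centred Gimap1 and Gimap6 fell inside the limit, with 0.52 and 0.51.

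**Figure D3:**
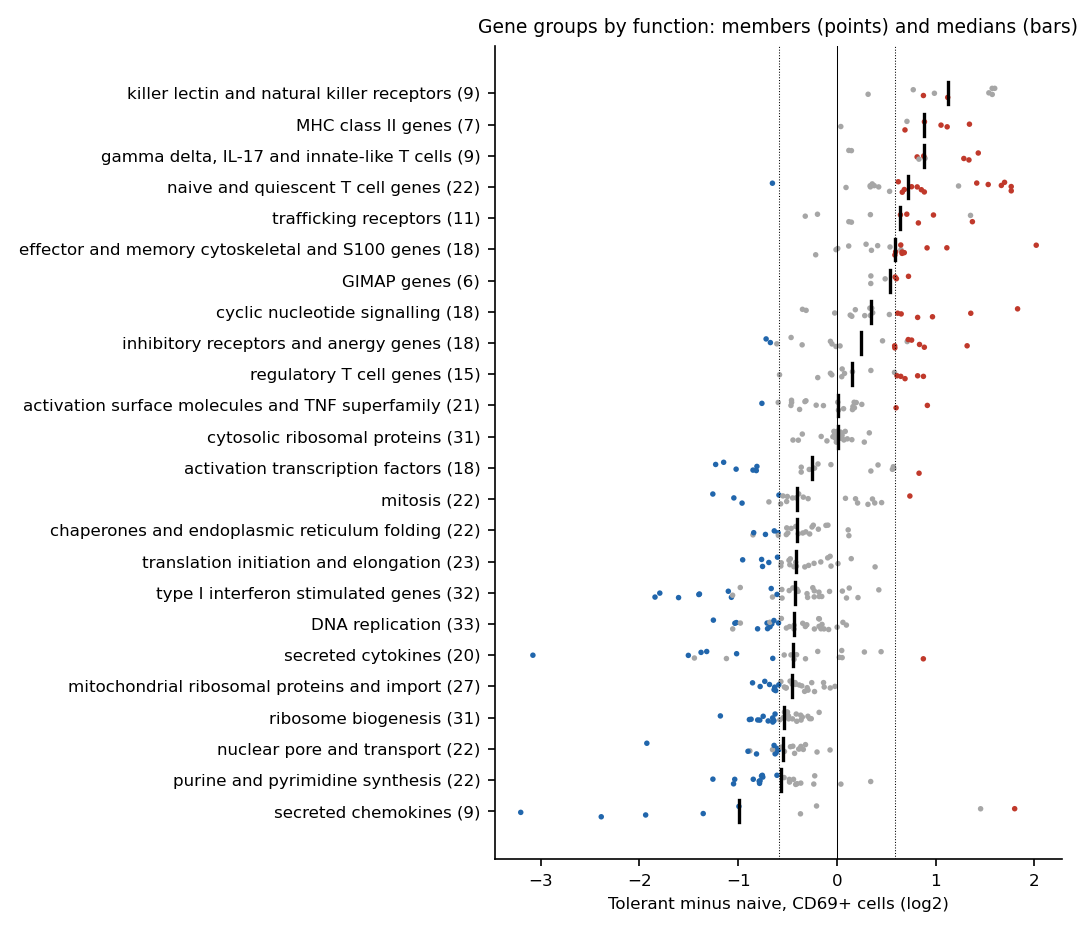
Each row is a gene group with its number of detected members; points are members, bars are medians and the horizontal axis is tolerant minus naive in CD69+ cells (log2). Red points are past 1.5-fold higher and blue points past 1.5-fold lower with sufficient signal. Quiescent genes have a median of 0.72, nucleotide synthesis genes one of -0.57.

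Genes stimulated by type I interferon formed a further lower group. Signals of the interferon receptor act on these genes through a short promoter sequence, the interferon-stimulated response element. Promoters of such genes are shown because their genes were lower and hold that element in its short form GAAANNGAAA, searched on both strands. The windows run from 250 bases before to 50 after the start of the gene (RefSeq, GRCm38.p6), 5′ to 3′ on the strand of the gene, and capitals mark matches, overlapping ones as a single stretch. They lie at chr4:156200769-156201068 on the minus strand for Isg15, chr12:26456403-26456702 on the minus strand for Rsad2 and chr19:34583279-34583578 on the plus strand for Ifit3.
Isg15: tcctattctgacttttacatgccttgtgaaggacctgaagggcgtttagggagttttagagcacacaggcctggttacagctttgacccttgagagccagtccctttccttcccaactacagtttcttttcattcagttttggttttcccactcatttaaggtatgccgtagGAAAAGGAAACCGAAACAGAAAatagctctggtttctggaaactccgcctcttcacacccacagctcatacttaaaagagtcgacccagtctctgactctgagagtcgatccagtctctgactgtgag
Rsad2: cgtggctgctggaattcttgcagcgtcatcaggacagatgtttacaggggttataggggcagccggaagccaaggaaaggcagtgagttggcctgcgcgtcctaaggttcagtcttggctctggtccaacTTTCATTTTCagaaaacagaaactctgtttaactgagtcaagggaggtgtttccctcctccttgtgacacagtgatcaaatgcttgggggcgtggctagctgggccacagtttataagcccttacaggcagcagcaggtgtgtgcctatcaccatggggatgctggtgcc
Ifit3: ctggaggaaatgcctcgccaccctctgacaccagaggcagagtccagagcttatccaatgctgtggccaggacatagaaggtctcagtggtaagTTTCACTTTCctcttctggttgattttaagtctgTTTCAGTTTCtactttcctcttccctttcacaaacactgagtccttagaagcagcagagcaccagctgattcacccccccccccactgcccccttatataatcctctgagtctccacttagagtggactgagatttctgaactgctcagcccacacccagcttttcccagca
Isg15 holds 3 matches, Ifit3 holds 2 and Rsad2 holds 1. Over all 32851 promoters of that length 3.44% hold a match, and 12 of the 27 genes of the interferon list with an entry do. Among the lower genes with an entry, 4 of 7 do.

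Of 32 detected interferon genes, 9 (28.1%) were past 1.5-fold lower in tolerant CD69+ cells, none was higher and the median was -0.42. Isg15, a ubiquitin-like protein, had 11.56 in tolerant, 12.95 in naive and 13.74 in rejecting CD69+ cells. Ifit3 had 10.24 in tolerant, 11.63 in naive and 13.03 in rejecting cells, and Rsad2, which encodes viperin, had 7.76 in tolerant, 9.55 in naive and 10.66 in rejecting cells. Zbp1, a sensor of nucleic acids, had 8.37 in tolerant, 9.98 in naive and 10.32 in rejecting cells. For these genes the order ran from tolerant through naive to rejecting, and the naive array was not the lowest as it was for the resting genes. In CD69- cells the median of the 32 genes was -1.29 and all 32 were below 0. Isg15 had 10.81 in tolerant and 13.28 in naive CD69- cells, and Ifit3 had 11.95 in tolerant and 14.18 in naive cells. This difference was therefore larger in the cells that stayed CD69-, unlike that of the cytokines, although the gap between fractions was not tested. Probes disagreed for some members: the highest-variance probe gave -0.17 for Oasl2, against -1.84 for the probe used, and -0.67 for Zbp1. GTPases and chemokines induced by interferon gamma had none of 12 listed members past 1.5-fold in CD69+ cells and a median of -0.24. In CD69- cells these 12 genes had a median of -1.04 and all 12 were below 0, so lower levels there were not confined to the type I list.

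Hemoglobin transcripts were lower in tolerant than in naive cells in both fractions, as the interferon genes were. Hbb-bs had 8.93 in tolerant and 10.95 in naive CD69+ cells, and 9.87 in tolerant and 13.63 in naive CD69- cells. Of 12 markers of red cells and platelets 3 were detected on each CD69+ array, all hemoglobin genes, while Alas2, Slc4a1 and Pf4 were not detected on any array. In rejecting minus naive CD69+ cells the orders parted, with a median of 0.82 for the interferon genes and -0.08 for the red cell and platelet markers. The summed linear level of the 4 members kept was 1311 in tolerant and 5468 in naive CD69+ cells. The part of these transcripts in the other differences was not tested.

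Genes of cell movement and of memory cells were higher in tolerant CD69+ cells. Of 11 detected trafficking receptors, 5 (45.5%) were higher and none lower, with a median of 0.64. Cxcr4, the receptor for CXCL12, had 9.15 in tolerant and 7.78 in naive cells, and Cxcr3, a receptor of effector and memory T cells, had 11.91 in tolerant and 10.93 in naive cells. S1pr4 and Selplg, a sphingosine phosphate receptor and the selectin ligand PSGL-1, had 10.37 and 13.69 in tolerant cells and 9.54 and 12.98 in naive cells. Ccr7, which guides cells into lymph nodes, had 11.31 in tolerant and 10.97 in naive cells, within 1.5-fold. Integrins and adhesion had 6 of 17 (35.3%) higher, among them Itgb7, the gut homing integrin subunit, at 13.12 in tolerant and 11.88 in naive cells, and Pecam1, at 10.42 in tolerant and 9.34 in naive cells. Cxcr4, S1pr4, Selplg, Itgb7 and Pecam1 had higher levels in CD69- than in CD69+ cells of either group, as the resting genes above did. Cxcr3 did not in tolerant mice, with 11.34 in CD69- cells. In rejecting mice the median of CD69+ minus CD69- was 0.35 for the trafficking receptors and -0.71 for integrins and adhesion.

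Of 18 genes of the S100 and cytoskeletal kind that mark effector and memory cells, 9 were higher, none was lower and the median was 0.59. Ahnak, a large scaffold protein, had 12.49 in tolerant, 10.47 in naive and 10.82 in rejecting CD69+ cells. S100a11 had 14.06 in tolerant and 12.95 in naive cells, and Lgals1, which encodes galectin-1, had 13.99 in tolerant and 13.08 in naive cells. The wider list of actin and tubulin genes had 4 of 25 higher (16%), 1 lower and a median of 0.06. Its higher members included Flna, an actin crosslinker, at 11.24 in tolerant and 10.30 in naive cells, and the lower one was Tuba4a, a tubulin, at 8.47 in tolerant and 9.46 in naive cells. Cd44, a surface marker of memory and activation, did not share this order, with 12.52 in tolerant and 12.51 in naive cells, though another probe gave 0.47.

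Genes of innate-like T cells were also higher, and those of killing were mixed. Of 11 detected genes of cytotoxic granules, 2 (18.2%) were higher, Gzmk and Unc13d, none was lower and the median was 0.32. Gzmk, a granzyme of memory T cells, had 9.08 in tolerant and 7.14 in naive cells, while Prf1, which encodes perforin, had 10.31 in tolerant and 10.51 in naive cells. Of 19 killer lectin and natural killer receptors named on the array, 9 were detected in tolerant and 4 in naive CD69+ cells, and Ncr1, Klrk1 and Klra8 were not detected on any array. Over all 8347 named genes, 7688 were detected in tolerant and 7401 in naive CD69+ cells. The median of the 9 killer receptors kept was 1.12, but 0.32 with no detection filter, so it depends on which members are kept. Klrd1, which encodes CD94, had 11.34 in tolerant and 10.22 in naive cells, and Klrg1, a receptor of late effector cells, had 9.84 in tolerant and 8.97 in naive cells. These were the members with a signal of 500 or more and both were higher. Klrd1 and Gzmk had higher levels in CD69- than in CD69+ cells of either group, whereas Klrg1 had lower levels in CD69- cells. Of 15 gamma delta and IL-17 genes, 9 were detected in tolerant and 8 in naive cells, all 9 had a higher level in tolerant cells and 5 of the 9 (55.6%) passed 1.5-fold. Cd163l1, a scavenger receptor of gamma delta cells, had 11.84 in tolerant, 10.41 in naive and 9.72 in rejecting cells. Blk, a kinase of B cells and IL-17 producing gamma delta cells, had 9.87 in tolerant, 8.59 in naive and 7.30 in rejecting cells, and Tmem176a had 9.72 in tolerant, 8.38 in naive and 7.51 in rejecting cells. Trgv4, a gamma chain segment, had 10.81 in tolerant and 9.93 in naive cells. Il17a, Il23r and Sox13 were not detected on any array.

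Class II genes were higher in tolerant CD69+ cells but mostly lower in tolerant CD69- cells. Of 7 detected class II genes, 5 (71.4%) were past 1.5-fold higher in tolerant CD69+ cells with a median of 0.89, while the same 7 had a median of -0.75 in CD69- cells, where H2-Ob was the one above 0. The array also names H2-Aa, H2-DMb1 and Ciita, which were not detected on any array. H2-Eb1 had 9.42 in tolerant and 8.07 in naive CD69+ cells, while the tolerant CD69- array did not detect it and the naive CD69- array had 7.52. H2-Ab1 had 10.44 in tolerant and 9.55 in naive CD69+ cells, and H2-Oa, part of a regulator of peptide loading, had 10.72 in tolerant and 9.60 in naive cells. The B cell markers that were detected stood higher too. Their median was 1.17, but 0.33 with no detection filter. Cd79b, part of the B cell receptor, had 9.92 in tolerant and 8.72 in naive cells. Pou2af1, a coactivator of B cells and follicular helper cells, had 11.72 in tolerant, 10.67 in naive and 9.95 in rejecting cells, and Cd72 had 10.38 in tolerant, 9.53 in naive and 8.86 in rejecting cells. The summed linear level of the 5 B cell markers kept was 6744 in tolerant and 3239.9 in naive CD69+ cells. Mzb1, a chaperone of antibody-producing cells, had 11.44 in tolerant and 7.54 in naive cells, while the plasma cell markers Jchain, Sdc1, Prdm1 and Tnfrsf17 were not detected on any array. Of the 6 plasma cell markers kept, 3 were above 0 and 3 below, with a median of 0.00. Mzb1 was past 1.5-fold higher, and Irf4, given above, was past it lower. The summed linear level of the 6 was 22232 in tolerant and 24465 in naive CD69+ cells. The donor splenocytes of the coculture include B cells and myeloid cells, and how far the sort on CD3 removed them was not tested. The part of other cell types in these differences was not tested.

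Genes tied to T cell inhibition did not move as 1 group. Of 18 detected inhibitory receptor and anergy genes, 7 (38.9%) were higher and 2 (11.1%) lower, and the median of 0.25 turned to -0.02 when levels below detection were raised to the detection limit. Dgka, a diacylglycerol kinase that dampens receptor signals and is raised in anergic T cells, had 13.26 in tolerant and 11.94 in naive cells. Another Dgka probe with sufficient signal gave 1.44, but the highest-variance probe gave -0.12. Tob1, an antiproliferative factor of resting T cells, had 9.16 in tolerant and 8.27 in naive cells, and Ptpn22, a phosphatase of receptor signalling, had 11.79 in tolerant and 10.95 in naive cells. Dgka and Tob1 also had higher levels in CD69- than in CD69+ cells of either group. Lag3, an inhibitory receptor, was lower, at 9.55 in tolerant, 10.27 in naive and 10.55 in rejecting cells. Cd160 was lower as well, at 10.64 in tolerant and 11.31 in naive cells. Tigit, another inhibitory receptor, named here after its value was seen, was higher, at 10.94 in tolerant and 10.22 in naive cells, and it met the criteria for candidate tolerance genes given below. Ctla4 had 11.63 in tolerant and 11.70 in naive cells, and Egr2, an inducer of anergy genes, had 10.62 in tolerant and 11.03 in naive cells, both within 1.5-fold. Pdcd1 and Cblb had too low a signal to be counted.

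Regulatory T cell genes gave 5 of 15 (33.3%) higher and none lower, with a median of 0.16. Foxp3, the transcription factor that defines regulatory T cells, had 12.59 in tolerant, 12.01 in naive and 12.05 in rejecting CD69+ cells, just inside the 1.5-fold limit. Its other 3 probes ran from -0.32 to 0.94, so that they do not agree on a direction. In CD69- cells Foxp3 had 10.25 in tolerant and 10.88 in naive mice. Nt5e, which encodes the adenosine-producing enzyme CD73, had 11.33 in tolerant and 10.51 in naive cells. Izumo1r, which encodes folate receptor 4, had 9.39 in tolerant and 8.69 in naive cells, with other probes from 0.13 to 0.77. Capg, an actin capping protein, had 12.64 in tolerant and 11.99 in naive cells. Ikzf2, which encodes Helios, had 8.92 in tolerant and 8.57 in naive cells and Ctla4 is given above, both inside the limit.

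Signalling by cyclic nucleotides had 6 of 18 genes (33.3%) higher and none lower. Pde2a, a phosphodiesterase, had 9.94 in tolerant and 8.10 in naive cells, Adcy7, an adenylate cyclase, had 9.07 in tolerant and 7.71 in naive cells, and Pde4d had 9.76 in tolerant and 8.79 in naive cells. The mean of the detected Pde4d probes was 0.31. Pde2a, Adcy7 and Pde4d, with Ifngr1 and Tgfbr2 below, had higher levels in CD69- than in CD69+ cells of either group, as the resting genes did. In rejecting mice the median of CD69+ minus CD69- was -1.19 for the cyclic nucleotide genes. Receptors and their signal carriers were mixed: Ifngr1, a chain of the interferon gamma receptor, had 13.68 in tolerant and 12.28 in naive cells. Tgfbr2, a TGF-beta receptor chain, had 13.25 in tolerant and 12.43 in naive cells, whereas Il21r had 7.90 in tolerant and 8.89 in naive cells and Il15ra had 8.30 in tolerant and 9.09 in naive cells. Lysosomal genes were higher in 3 of 21 cases (14.3%) and lower in 1 (4.76%), not far from the shares of all named genes. The higher ones were Ctsh at 8.55 in tolerant and 7.04 in naive cells, Psap at 13.84 in tolerant and 12.84 in naive cells, and Lipa at 10.26 in tolerant and 9.33 in naive cells. Lamp2 was lower, at 10.77 in tolerant and 11.41 in naive cells, and its highest-variance probe gave 0.20, the other direction.

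Several of the genes ranked 11 to 30 in either direction lie outside these groups. On the higher side, Qpct, a glutaminyl cyclase, had 8.64 in tolerant and 6.93 in naive cells. Camk2n1, an inhibitor of CaM kinase II, had 9.71 in tolerant and 8.02 in naive cells, and Prss12, a serine protease, had 9.11 in tolerant and 7.42 in naive cells. Both differed in CD69- cells too, Camk2n1 by 1.30 and Prss12 by 1.06. Aqp3, a water and glycerol channel, had 9.10 in tolerant and 7.47 in naive cells, and Fcgrt, the neonatal Fc receptor chain, had 10.34 in tolerant and 8.76 in naive cells. Frat2, which acts in WNT signalling, had 10.56 in tolerant and 8.99 in naive cells, and Pou6f1 had 9.41 in tolerant and 7.86 in naive cells. On the lower side, Crabp2, a carrier of retinoic acid, had 7.51 in tolerant and 9.08 in naive cells. Eif4b, a translation initiation factor, had 9.01 in tolerant and 10.34 in naive cells, and Ddx5, an RNA helicase, had 8.96 in tolerant and 10.21 in naive cells. Snrnp70, a splicing factor, had 10.32 in tolerant and 11.58 in naive cells, with a mean over its probes of -0.47. Spag4 had 7.16 in tolerant and 8.53 in naive cells, Slc35f2 had 7.67 in tolerant and 9.01 in naive cells, and Aunip, a partner of Aurora A kinase, had 7.57 in tolerant and 8.87 in naive cells.

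A few genes were detected on 1 side only, and their difference is a bound. Besides Ccl9, these were Prg2, Dtx4, Pygl and Gprc5b, all detected in tolerant cells. Prg2, the major basic protein of eosinophil granules, was at least 5.65-fold higher, at 9.26 in tolerant against 5.40 in naive CD69+ cells. The other 10 markers of eosinophils, mast cells and basophils named on the array were not detected on any array. Dtx4, a NOTCH pathway ubiquitin ligase, was at least 4.35-fold higher, Pygl, the liver glycogen phosphorylase, at least 3.23-fold and Gprc5b, an orphan receptor, at least 3.03-fold. Dtx4, Pygl and Gprc5b had higher levels in CD69- cells of both groups than in tolerant CD69+ cells, whereas Prg2 was highest in tolerant CD69+ cells. Among probes of Pygl, one detected on all 6 arrays gave 0.31.

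The study defined candidate tolerance genes by 3 criteria: tolerant CD69+ cells at least 1.5-fold above naive CD69+ cells, the same margin above tolerant CD69- cells, and a signal of 500 or more in tolerant CD69+ cells. Of 5760 named genes with that signal, 1432 met the second criterion and 87 met all 3, which is 1.04% of the 8347 named genes. Each of the 87 had its highest level of the 6 arrays in tolerant CD69+ cells, and 72 were at least 1.5-fold above rejecting CD69+ cells. The criteria already place this array above naive CD69+ and tolerant CD69- cells, so the order is partly fixed by the selection. Few genes were apart between rejecting and naive CD69+ cells, so the 72 also follow in part from it. The second criterion left 87 of the 698 genes that were higher than in naive cells, and Il7r, Klf2 and the other resting state genes described above were not among them. Of the 87, 63 were also at least 1.5-fold higher in rejecting CD69+ than rejecting CD69- cells. The same share among the 1432 genes that met the second criterion was not determined, so the 63 are not read as particular to the 87.

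These genes have varied roles. Igf2, a growth factor, had 9.80 in tolerant, 8.14 in naive and 8.68 in rejecting CD69+ cells, against 7.30 in tolerant CD69- cells. Slc6a13, a GABA transporter, had 8.69 in tolerant and 7.10 in naive CD69+ cells. Gja1, which encodes connexin 43, had 8.92 in tolerant and 7.36 in naive CD69+ cells. Slc6a13 and Gja1 were not detected in rejecting CD69+ cells. Sytl2, an effector of RAB27 in granule release, had 11.06 in tolerant, 9.52 in naive and 9.38 in rejecting CD69+ cells. Mmp9, a matrix protease, had 9.36 in tolerant, 7.89 in naive and 7.94 in rejecting CD69+ cells. Tspan17 had 8.27 in tolerant and 6.77 in naive CD69+ cells and was not detected in rejecting CD69+ cells. For Sytl2 and Mmp9 naive and rejecting cells lay within 1.5-fold of each other. Fscn1, the actin bundler fascin, was 2.53-fold higher in tolerant than in naive CD69+ cells, and Hip1r had 8.45 in tolerant, 7.10 in naive and 7.40 in rejecting cells. Ddc, which makes dopamine and serotonin from their precursors, had 8.98 in tolerant, 7.60 in naive and 8.13 in rejecting CD69+ cells. Trf, Ctsh, Cd163l1, Tmem176a, H2-Eb1, H2-Ab1, Blk, Pou2af1, Lgals1, Klrg1, Trgv4, Capg, Fosl2 and Fasl met the criteria too.

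**Figure D4:**
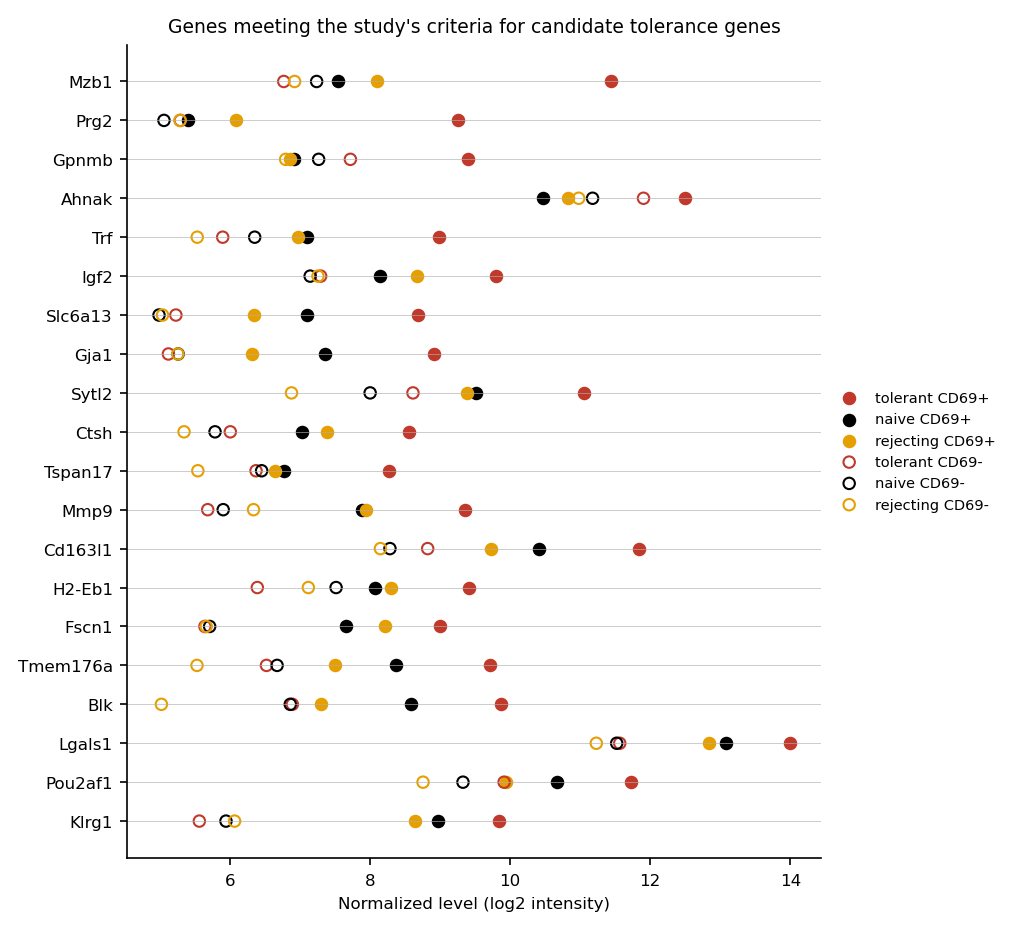
Each row is a gene that met the 3 criteria and the horizontal axis is its normalized level (log2 intensity) on the 6 arrays; filled points are CD69+ and open points CD69- cells. The tolerant CD69+ point is the rightmost in every row, at 11.44 for Mzb1 and 9.80 for Igf2.

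The same contrast in CD69- cells shares no array with the one in CD69+ cells. There 59 genes (0.707%) were higher in tolerant than in naive mice and 145 (1.74%) were lower. Of the 698 genes higher in CD69+ cells, 560 (80.2%) had the same sign in CD69- cells, against 54.6% of all named genes above 0 there, with a median of 0.17, and 22 were past 1.5-fold there. Of the 549 lower genes, 353 (64.3%) had the same sign, against 45.2% of all named genes below 0 there, with a median of -0.11, and 27 were past 1.5-fold. Centring array medians changed these shares to 57.9% and 80.7%. Genes higher in both fractions included Camk2n1, Prss12, Mt1, a metallothionein, Fcgrt, Gzmk and Ahnak. Genes lower in both were led by the hemoglobin and interferon genes with Irf8. Most of the genes apart in CD69+ cells were thus much closer in CD69- cells.

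**Figure D5:**
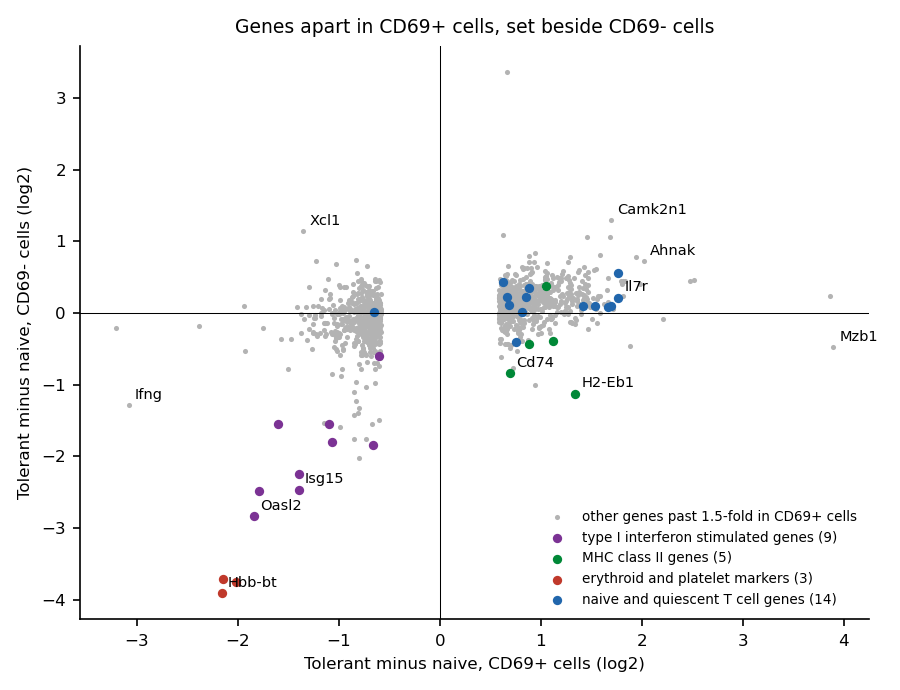
Each point is 1 of the 1247 named genes past 1.5-fold in CD69+ cells. The axes give tolerant minus naive in CD69+ cells (horizontal) and in CD69- cells (vertical), both log2. Hemoglobin and interferon genes lie lower in both fractions, with Hbb-bt at -2.16 and -3.91, while 4 of the 5 class II genes lie right of 0 and below 0.

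Where a gene past 1.5-fold had further probes with signal on both arrays, these were set beside the probe used. Over 426 such probes of 322 genes, 96.9% had the same direction, 64.1% were also past 1.5-fold, and the median gap was 0.19 on the log2 scale. Some of the genes named above lay inside the limit under another choice. The mean of the detected probes was 0.37 for Capg and -0.47 for Cdc25a. The highest-variance probe gave 0.42 for Tgfbr2 and 0.45 for Cdkn2c. Without background correction Cdkn1b had a difference of 0.42 and Fasl one of 0.56. With array medians centred the difference was -0.57 for Lag3.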

How the data were processed

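Total RNA of sorted T cell fractions was measured on Illumina MouseWG-6 BeadChips, 1 array for each of 6 groups. The authors deposited a non-normalized table of intensity and detection p-value for 45281 probes and a normalized value table, whose intensities have a median of 168.3 on every array; GenomeStudio 2009.2 is named per the submitters' processing notes, and how the value table was made is not given in the sources used here. Its counts below equalled those of quantile normalization without background correction.

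The deposited intensities were background-corrected by normexp in limma 3.58.1 (R 4.3.3), which inferred the spread of the 936 negative controls from detection p-values. After an offset of 16 all 6 arrays were quantile-normalized and taken to log2. Probe symbols came from the platform annotation, which gives 1 symbol for 34885 probes, several for 18 and lists no entry for 10378; the gene table (GRCm38.p6) matched 34852. Probes detected (p under 0.01) on at least 1 array were kept, and the one with the highest mean level stands for a gene. A fold change is on the scale of these offset levels and understates dim genes. A gene not detected on 1 side has a bound, for which its level is replaced by that of the dimmest probe still detected on the same array. The counting was tested on simulated data.

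Genes named in the text were drawn from the 10 furthest in each direction, ranks 11 to 30 (not all of them are printed), up to 4 members a direction of each of 50 function lists with defining members, genes detected on 1 side, and up to 10 further genes meeting the candidate criteria. Gpnmb and the other markers of cell types are named with their lists. The members and lists were chosen with earlier results of these data known. Medians and counts of a list are read against those of all named genes; no test was made, since each group is 1 array.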

Additional observations from a re-analysis of the deposited data

Results flagged for a closer look

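Cd74, the invariant chain of class II, was 0.69 higher on the log2 scale in tolerant than in naive CD69+ cells, and the sign was opposite in CD69- cells, at -0.84. Plgrkt, a plasminogen receptor, was 0.73 higher in tolerant than in naive CD69+ cells and stood at -0.77 in CD69- cells. Each fraction has 1 array a group, so the difference between fractions was not tested. Among 2340 detected probes that the annotation leaves unnamed, 104 with a signal of 500 or more were at least 4-fold higher in tolerant than in naive CD69+ cells and 1 was at least 4-fold lower. Among the 8347 named genes these counts, with the same signal minimum, were 6 and 6, and 3 of the 104 probes were also at least 4-fold higher in tolerant than in naive CD69- cells.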

How the results depend on the processing

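No paired analysis was possible because each group is 1 array. Of 698 genes higher and 549 lower, a 2-fold minimum left 199 and 84, no signal minimum gave 1078 and 834, and a signal minimum of 1000 gave 493 and 359. The lower count was 360 without background correction and 360 in the authors' value table. The 87 candidate genes became 146 with array medians centred, 56 with detection required on all 6 arrays, 23 at 2-fold, 199 with no signal minimum and 49 at a signal of 1000. The share of higher genes with the same sign in CD69- cells was 57.9%, and of lower genes 80.7%, with medians centred. Of 229 named genes, 212 moved by less than 1.5-fold without background correction, where dim genes drew together: Mzb1 had 3.15 and Gpnmb 1.64. With the highest-variance probe of each gene, Dgka turned to -0.12 and Lamp2 to 0.20. The causes were not tested. The medians of the genes at least 2-fold higher or lower with activation kept their sign and moved by less than 1.5-fold under all alternatives run. Signal near background limits the genes detected on 1 side, and also dim genes detected on both. Without background correction Klf3 had 1.05, Gzmk 1.27 and Oasl2 -1.06, against 1.77, 1.94 and -1.84 with it.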
